A study of Rattus norvegicus with 15 samples.

Results

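The response to a control siRNA was examined in unstressed primary chondrocytes, the cells of joint cartilage, taken from the rat temporomandibular (jaw) joint. The 3 libraries with the treatment label si-nc, read here as control siRNA, were set against the 3 libraries labelled nc, read as control. These 6 of 15 libraries were chosen by their labels alone, and all 14147 of 33717 loci with enough counts were tested. The 15 libraries were bulk RNA-seq of total RNA, in 5 groups of 3: control siRNA, Ddx5 siRNA, Ddx5 siRNA with mechanical stress, mechanical stress alone, and control. A small interfering RNA (siRNA) is a short duplex that leads the RNA-induced silencing complex to a matching transcript, and a control siRNA is meant to match none. The labels state neither the siRNA's sequence and carrier nor what the control cells received, so an effect of the RNA cannot be told apart from one of its delivery and the handling that goes with it. Strain, sex, age and passage are not stated either, nor whether libraries of a group were separate cultures, so p-values describe the spread between libraries, which may be only technical.

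As background, a shortage of amino acids leaves tRNAs uncharged, which activates the kinase GCN2 to phosphorylate the initiation factor eIF2, and other kinases of eIF2 answer double-stranded RNA, heme loss and misfolded protein in the endoplasmic reticulum. Translation then shifts toward a few messages such as that of ATF4, a transcription factor that pairs with C/EBP proteins at C/EBP-ATF response elements and raises genes for amino acid import, synthesis and tRNA charging. Immediate early genes such as Fos answer growth factors, serum and mechanical load within minutes through cyclic AMP response elements and serum response elements. Chondrocytes kept in culture are known to lose type II collagen and to make type I collagen, the main fibrillar collagen of bone, tendon and scar.

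The libraries held 14309005 to 16219775 counts each, and 3.91% to 4.68% of the counts came from mitochondrially encoded genes. Levels are given in CPM, the count of a gene scaled to a common library size after trimmed-mean adjustment. Of the defining chondrocyte genes, the proteoglycan gene Acan had levels of 287, 307 and 273 CPM with the control siRNA and 109, 219 and 120.2 CPM in control, and the transcription factor gene Sox9 at 14.5, 15 and 19.7 CPM against 20.9, 21.8 and 18.7 CPM. Col2a1, the type II collagen gene that defines hyaline cartilage, was nearly absent, at 0.327, 0.726 and 1.32 CPM with the control siRNA and 1.48, 2.27 and 4.49 CPM in control. Of 27 cartilage genes 9 had too few counts to be tested, among them Matn3 and Col9a1, and 2 of these, Matn1 and Epyc, had no count in these 6 libraries. The 18 tested summed to 8353 to 8877 CPM with the control siRNA and to 10260 to 11640 CPM in control, the other direction from Acan. Of the 18, 13 had a negative and 5 a positive log2 fold change. Of 16 macrophage and leukocyte markers 8 had no count, among them Ptprc, Aif1 and C1qa, and the 4 that could be tested summed to 19.3 to 22 CPM with the control siRNA and to 25.7 to 34.1 CPM in control. Of 12 endothelial and pericyte markers 11 were matched and 4 of these, including Cdh5 and Cldn5, had no count. The 3 tested summed to 351 to 379 CPM with the control siRNA and to 194 to 347 CPM in control, nearly all of it Cspg4. Markers of synovial fibroblasts and tendon did differ in sum, at 2365 to 2468 CPM for 11 tested genes of 13 against 1281 to 1616 CPM in control. The members did not move together, since 7 of the 11 had a negative log2 fold change (median −0.30), none was called higher and 1, Prg4, lower. Most of the sum was the surface glycoprotein gene Thy1, at 1706, 1620.0 and 1576 CPM against 781, 749 and 543 CPM (adjusted p = 0.0762). Thy1 passed in 5 of the 14 alternative settings listed under the processing. The 7 tested of 11 Schwann cell and neuron markers summed to 736 to 857 CPM against 518 to 707 CPM, most of it Ncam1, and the glial factor gene Sox10 had no count. The part of these markers in the results that follow was not tested, and in bulk RNA fewer cells of a type and less RNA per cell cannot be told apart.

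The control siRNA libraries differed from control in 547 genes (3.87% of those tested) at an adjusted p under 0.05 in edgeR's quasi-likelihood test. Of these, 297 were higher with the control siRNA (2.1%) and 250 lower (1.77%), 85 and 75 of them by at least 2-fold. The median log2 fold change over all tested genes was −0.00317, with an interquartile range from −0.23 to 0.232. The values of the control siRNA libraries lay wholly above or below those of control for each called gene, which held for 31.4% of all tested genes. Among the gene lists examined, 23 of 37 tested genes of the ATF4 and amino acid response, 13 of 20 cytosolic tRNA synthetase genes and 9 of 31 matrix genes were called higher. In the other direction, 13 of 40 growth factor signalling genes, 8 of 33 immediate early genes and 7 of 33 inflammatory genes were called lower. The count of called genes was 166, 171 and 190 without control siRNA library 1, 2 or 3, and 206, 392 and 177 without control library 1, 2 or 3. Both Ddx5 siRNA libraries numbered 1 stood apart from the other 4 libraries with that siRNA, as described further on. They belong to neither group but took part in the fit, and without them 1804 genes were called.

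**Figure D1:**
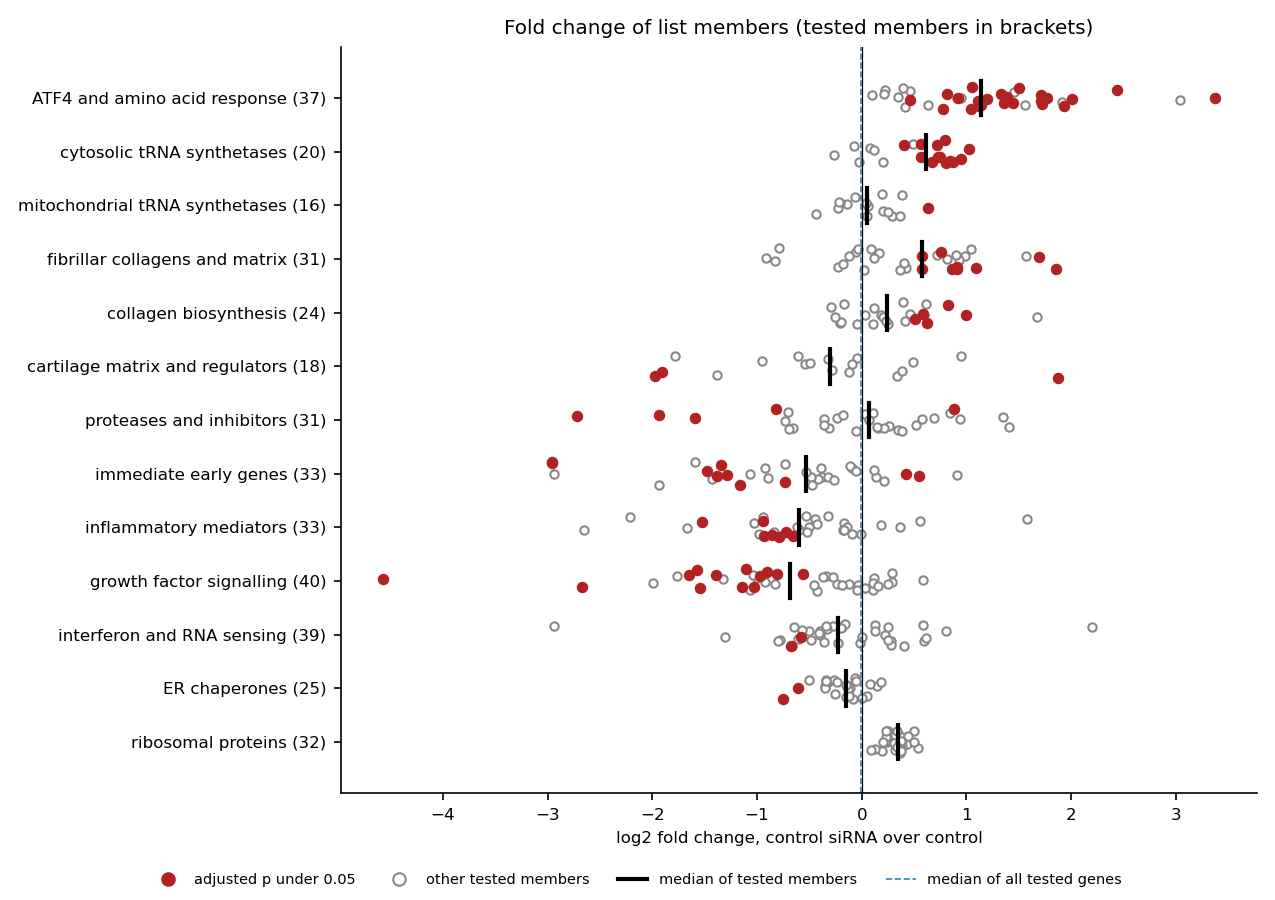
Log2 fold change of control siRNA over control (x axis) for the tested members of 13 gene lists (rows), with filled points for members at an adjusted p under 0.05, open points for other members and a bar at each list's median. The ATF4 and tRNA synthetase lists lie to the right of the median of all tested genes (−0.00317, dashed), with medians of 1.14 and 0.62, and the growth factor list to the left, with a median of −0.69.

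Most genes that ATF4 is known to raise in the amino acid response were higher. Of 37 tested genes of this list 23 were called higher in the control siRNA libraries and none lower, and all 37 had a positive log2 fold change (median 1.14). Asns, which encodes asparagine synthetase (ENSRNOG00000007546, chromosome 4, 33743364 to 33761163, coordinates as deposited, with no build stated), had levels of 186, 189 and 174 CPM with the control siRNA, against 79.8, 74.5 and 46.9 CPM in control. The groups did not overlap, and the fold change was 2.73 (log2 fold change 1.45, SE 0.18, adjusted p = 0.000904). Phgdh, the first enzyme of serine synthesis (ENSRNOG00000019328, chromosome 2, 200484246 to 200513564), stood at 201, 176 and 176 CPM with the control siRNA and 77.7, 80.3 and 36.6 CPM in control (log2 fold change 1.51, SE 0.27, adjusted p = 0.0111). The groups did not overlap, and control library 3 was the lowest of the 6. Psat1 and Psph, the next enzymes of that pathway, were called as well, with log2 fold changes of 1.77 (SE 0.37) for Psat1 and 1.35 (SE 0.20) for Psph.

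Amino acid transporters made up a further block of called members. Slc7a3, a transporter of cationic amino acids (ENSRNOG00000004133, chromosome X, 70972765 to 70978952), stood at 12.5, 14 and 12.4 CPM with the control siRNA and was nearly silent in control, at 1.48, 0.975 and 1.26 CPM, a 10.4-fold difference (log2 fold change 3.38, SE 0.51, adjusted p = 0.00285). Slc6a9, a glycine transporter, stood at 59.8, 63.1 and 80 CPM with the control siRNA and 12.3, 15.9 and 9.28 CPM in control (log2 fold change 2.44, SE 0.43, adjusted p = 0.0119). Slc7a5, the light chain of the large neutral amino acid carrier, stood at 307, 326 and 358 CPM against 161, 173 and 145 CPM (log2 fold change 1.05, SE 0.13, adjusted p = 0.000904). The glutamine carrier gene Slc1a5, the cystine carrier gene Slc7a11 and the cationic carrier gene Slc7a1 were higher by 0.81 (SE 0.11), 1.72 (SE 0.35) and 0.78 (SE 0.17). Slc38a2, Slc3a2 and Slc1a4 had positive values that did not pass, though Slc1a4 did in 6 of the 14 alternative settings. Higher as well were Gpt2, an alanine aminotransferase gene (1.11, SE 0.25), and Vldlr, a lipoprotein receptor gene (1.33, SE 0.33).

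The transcription factors of the response divided between called and uncalled. Atf5 (ENSRNOG00000020060, chromosome 1, 100808241 to 100810522), a relative and target of ATF4, stood at 464, 466 and 533 CPM with the control siRNA and 170.0, 167 and 108 CPM in control (log2 fold change 1.72, SE 0.23, adjusted p = 0.00142), with no overlap. Cebpg, a C/EBP partner of ATF4, was higher by 0.46 (SE 0.11). Atf4 itself stood at 474, 457 and 479.9 CPM against 378, 306 and 225 CPM, a difference of 0.63 that did not pass (SE 0.18, adjusted p = 0.0705). Atf4 did pass in 6 of the 14 alternative settings, so its place among the uncalled genes depends on the processing. ATF4 protein, which is set largely by translation, was not measured. Ddit3, the CHOP factor gene of prolonged stress, and Atf3 had log2 fold changes of 0.95 (SE 0.39) and 0.91 (SE 0.48) that did not pass. In the alternative settings Ddit3 passed in none and Atf3 in 3. Trib3, a pseudokinase gene that restrains ATF4, was higher by 2.01 (SE 0.40), the glutathione-degrading enzyme gene Chac1 by 1.39 (SE 0.33), the mTORC1 inhibitor gene Sesn2 by 1.14 (SE 0.16) and the translation repressor gene Eif4ebp1 by 1.06 (SE 0.18).

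Of 22 tested genes of one-carbon and nucleotide metabolism, 3 were called higher (13.6%, against 2.1% of all tested genes). These act in the mitochondrial branch of the pathway, which ATF4 is known to raise. All 3 are also among the 23 called genes of the ATF4 list, so they are not a separate result. Shmt2, the mitochondrial serine hydroxymethyltransferase, stood at 187, 188 and 184 CPM with the control siRNA and 84.3, 88.1 and 85.3 CPM in control (log2 fold change 1.12, SE 0.18, adjusted p = 0.00366). Mthfd2 and Aldh1l2, which carry the one-carbon unit further, were higher by 0.92 (SE 0.12) and 1.71 (SE 0.29). The one-carbon list's median was 0.12, 7 of its genes had a negative log2 fold change, and the other 19 did not pass. Pycr1, the last enzyme of proline synthesis, was higher by 1.20 (SE 0.15) and Cth, which makes cysteine, by 1.93 (SE 0.39). Among 19 sensors and regulators of amino acid supply and eIF2, 3 were called: the eIF2B subunit genes Eif2b2 (0.54, SE 0.083) and Eif2b3 (0.61, SE 0.10) higher, and Impact, which encodes an inhibitor of GCN2, lower (−0.50, SE 0.12). The list's median was 0.00, with 10 genes positive and 9 negative. These calls were 10.5% higher and 5.26% lower, against 2.1% and 1.77% of all tested genes, and are not read as a result about the list. Eif2ak2, the kinase PKR that binds double-stranded RNA, stood at 30, 33.5 and 32.6 CPM against 40.2, 38.3 and 42.8 CPM (adjusted p = 0.138).

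Among the amino acid response genes described above, Asns, Phgdh, Atf5, Slc7a3, Slc7a5, Slc1a5, Psph, Shmt2, Mthfd2, Aldh1l2, Pycr1, Sesn2, Eif4ebp1, Eif2b2 and Eif2b3 kept an adjusted p under 0.05 when any single library was left out. The calls of Slc6a9, Psat1, Slc7a11, Slc7a1, Gpt2, Vldlr, Cebpg, Trib3, Chac1, Cth and Impact were each lost in at least 1 such fit, with adjusted p up to 0.0648, 0.0855, 0.0659, 0.106, 0.105, 0.156, 0.14, 0.0707, 0.138, 0.0754 and 0.137. The list's count of higher members was 14 without control siRNA library 3.

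**Figure D2:**
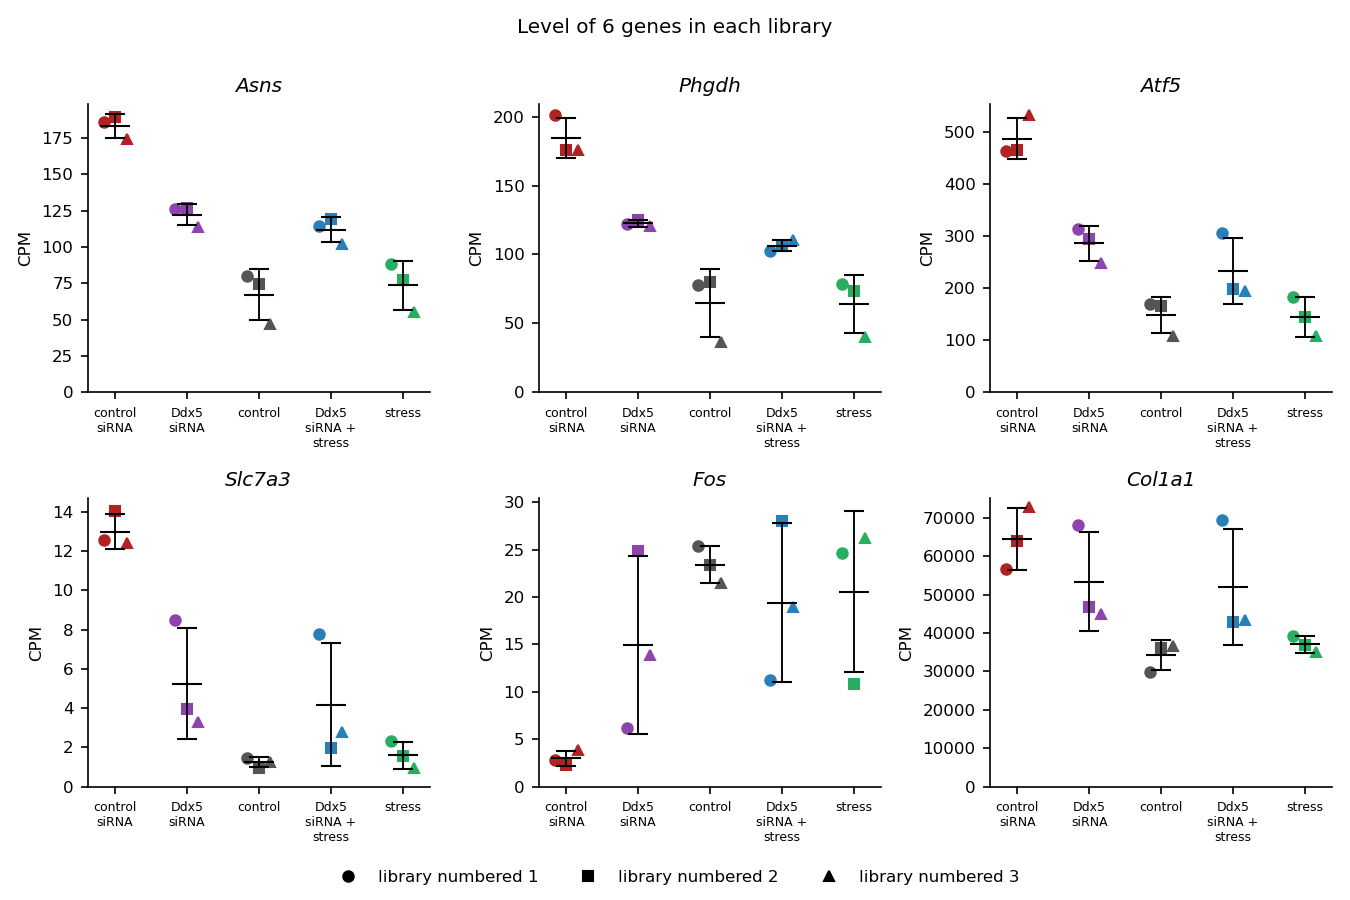
Level in CPM (y axes, from 0) of 6 genes in each of the 15 libraries by group (x axes), with symbols for the library number, a short line at the mean and bars of 1 SD over 3 libraries. Asns, Phgdh, Atf5, Slc7a3 and Col1a1 are highest and Fos lowest in the control siRNA libraries among the groups shown here by mean. The means of the groups with a Ddx5 siRNA lie between control siRNA and control for all 6.

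Cytosolic aminoacyl-tRNA synthetases, which join each amino acid to its tRNA, were higher with the control siRNA in 13 of 20 tested genes and lower in none (median log2 fold change 0.62). Yars, for tyrosine (ENSRNOG00000007213, chromosome 5, 147375350 to 147403571), stood at 175, 153 and 139.6 CPM with the control siRNA, against 78, 81.7 and 69.8 CPM in control and had the smallest adjusted p of all tested genes (log2 fold change 1.03, SE 0.092, adjusted p = 0.00016). Wars, for tryptophan, stood at 159, 168 and 162 CPM against 71.3, 95.9 and 87.1 CPM (log2 fold change 0.94, SE 0.11, adjusted p = 0.000904). Eprs, for glutamate and proline, stood at 582, 615 and 568 CPM against 306, 348 and 308 CPM (log2 fold change 0.88, SE 0.09, adjusted p = 0.000462). No control siRNA library overlapped a control library for these 3 genes. Sars, Cars, Aars, Iars, Mars, Lars, Gars, Nars, Vars and Tars were higher by 0.84, 0.80, 0.80, 0.75, 0.73, 0.72, 0.67, 0.56, 0.56 and 0.41 on the log2 scale. The other 7 tested synthetases did not pass, and of these Qars, for glutamine, had 0.49 (SE 0.16) and Dars, for aspartate, −0.26 (SE 0.10). Qars passed in 4 and Dars in 1 of the 14 alternative settings. The synthetases that work in mitochondria did not move as a group: 1 of 16 was called, Fars2, at 0.63 (SE 0.16), and the median was 0.05. The cytosolic count was 12 to 13 when any single library was left out. The call lost there was that of Tars (adjusted p up to 0.087), without control siRNA library 1 or 2 or control library 3. Fars2 lost its call in each such fit (adjusted p up to 0.147).

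**Figure D3:**
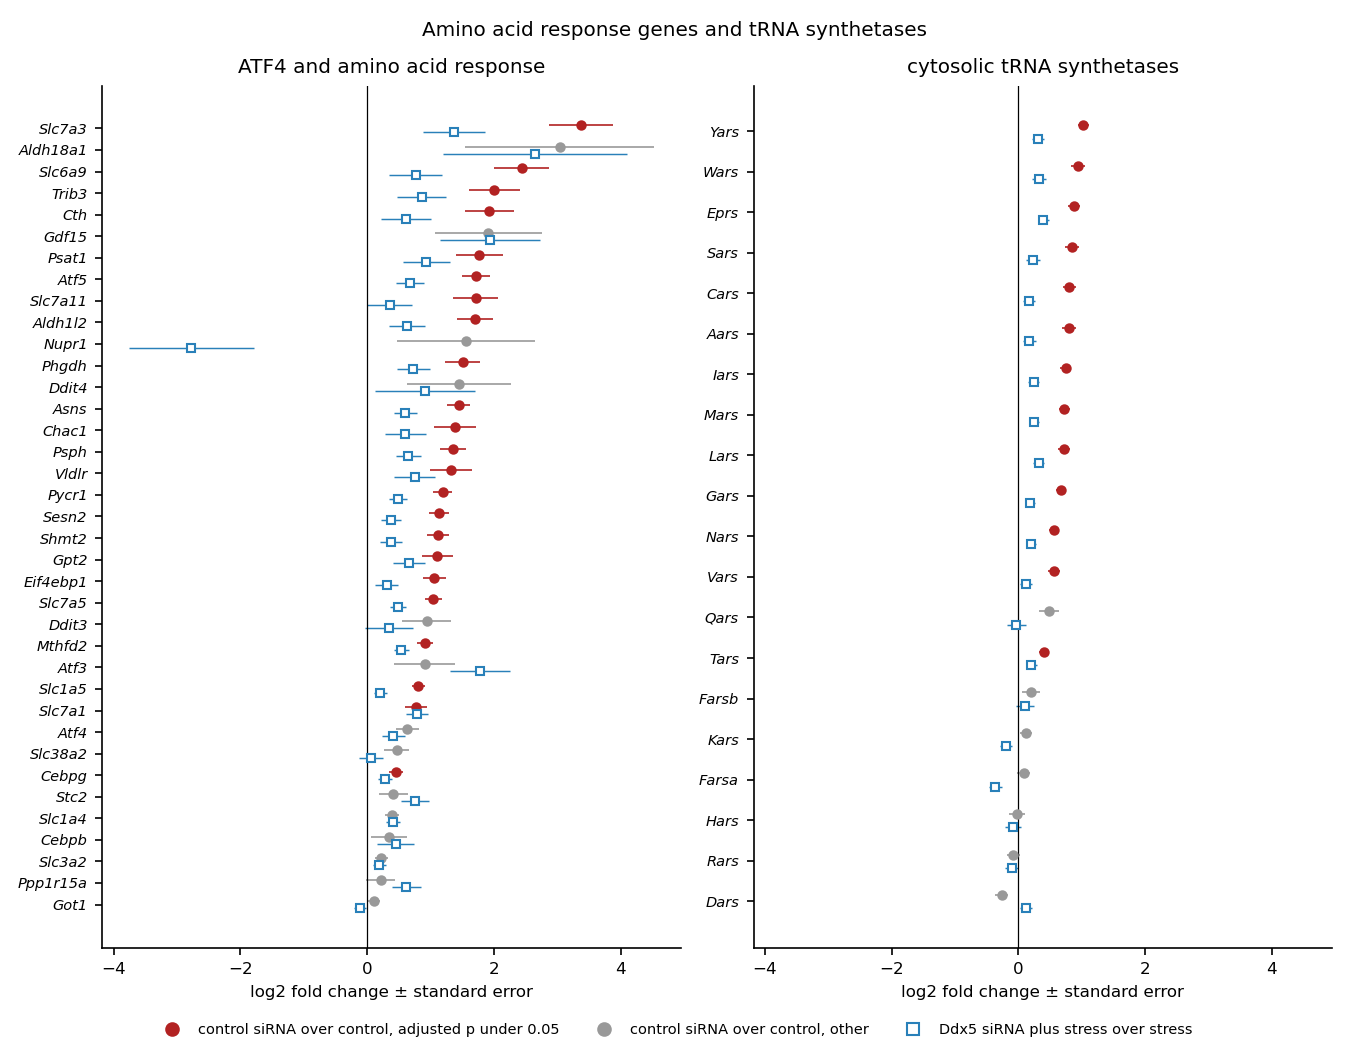
Log2 fold change with its standard error (x axis) of each tested member of the ATF4 and amino acid response list (left) and of the cytosolic tRNA synthetases (right). Circles give control siRNA over control, filled red at an adjusted p under 0.05, and squares Ddx5 siRNA with stress over stress; all 37 circles on the left lie above 0, and the medians of the squares are 0.61 and 0.18.

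Promoter sequences were searched for the C/EBP-ATF response element, written TGATGNAA, on both strands of RefSeq windows (build GRCr8) from 250 bases before to 50 after each annotated start. It was present in 3.82% of 27457 windows. Of the synthetase genes 17 could be matched to a window and 7 held the element (Aars, Cars, Iars, Mars, Nars, Tars and Yars), each of them called higher. Of 31 matched genes of the ATF4 list 7 held it, of which Trib3, Chac1, Slc7a1 and Pycr1 were called and Slc1a4, Got1 and Nupr1 were not. Among all genes called higher 20 of 214 windows held it (9.35%), and among those called lower 3 of 189 (1.59%). The 20 include the synthetase genes and the called genes of the ATF4 list just named, so that share is not separate from theirs. The 3.82% covers windows of all genes, tested or not. The windows of Asns, Phgdh and Atf5 did not hold these letters, and no window was given for Slc7a3, so a match describes the letters only. In Cars and Yars, and in a further match of Aars, the element lay past the start site. The stretches around the other matches, up to 26 bases on either side and none past the start site, are shown to place the element in its context in called genes, 5′ to 3′ in the sense of the gene, with the element or its reverse complement in capitals.
Trib3 (chr3:161275534-161275580, minus strand): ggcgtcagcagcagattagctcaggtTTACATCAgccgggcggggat
Chac1 (chr3:126795938-126795997, plus strand): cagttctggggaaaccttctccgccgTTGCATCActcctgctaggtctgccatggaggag
Slc7a1 (chr12:11664432-11664487, plus strand): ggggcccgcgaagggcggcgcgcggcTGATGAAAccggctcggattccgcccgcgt
Pycr1 (chr10:106420910-106420969, minus strand): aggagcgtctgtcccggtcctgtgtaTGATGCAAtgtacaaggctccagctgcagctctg
Aars (chr19:55908344-55908403, plus strand): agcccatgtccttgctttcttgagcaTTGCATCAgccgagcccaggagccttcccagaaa
Iars (chr17:15193653-15193702, minus strand): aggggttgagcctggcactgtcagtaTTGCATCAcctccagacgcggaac
Mars (chr7:65023754-65023796, minus strand): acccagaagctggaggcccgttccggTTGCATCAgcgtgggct
Nars (chr18:60275783-60275822, minus strand): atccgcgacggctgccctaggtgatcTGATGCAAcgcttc
Tars (chr2:62114803-62114855, minus strand): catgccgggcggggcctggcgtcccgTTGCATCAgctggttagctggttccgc
No match overlapped a match of the cyclic AMP response element or of the AP-1 site in these windows. In Iars, Mars, Nars and Tars the element began 24, 17, 14 and 27 bases before the start site, and in Trib3 and Slc7a1 21 and 30 bases before it.

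Of 31 tested genes for fibrillar collagens and fibroblastic matrix, 9 were called higher and none lower (median log2 fold change 0.57). Col1a1, the chain that makes up most of type I collagen (ENSRNOG00000003897, chromosome 10, 82745801 to 82762789), stood at 56630.0, 63849 and 72887 CPM with the control siRNA, against 29909, 36237 and 36700.0 CPM in control, with no overlap (log2 fold change 0.91, SE 0.20, adjusted p = 0.022). Its reads were 5.46%, 6.09% and 6.91% of all counts in the control siRNA libraries, against 3.17%, 3.77% and 3.82% in control. Col5a1, a regulatory chain of collagen fibrils, stood at 2286, 2569 and 2588 CPM with the control siRNA and 966, 1446 and 1078 CPM in control (log2 fold change 1.09, SE 0.22, adjusted p = 0.0145). Fbln2, which encodes the matrix glycoprotein fibulin-2, stood at 2081, 2463 and 2401 CPM against 1099.6, 1418 and 1171 CPM (log2 fold change 0.91, SE 0.15, adjusted p = 0.00405). Fbln1, of the same family, stood at 86.1, 85.7 and 77 CPM against 23.3, 30.3 and 15.1 CPM (log2 fold change 1.86, SE 0.45, adjusted p = 0.0466). Col6a1, Col6a2, the fibrillin gene Fbn1, the fibronectin gene Fn1 and the adhesion protein gene Tgfbi were higher by 0.57, 0.58, 0.86, 0.76 and 1.69 on the log2 scale.

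Enzymes and chaperones of collagen folding gave 5 calls among 24 tested genes, all higher (median 0.24). They were the prolyl hydroxylase gene P3h1 (log2 fold change 0.59, SE 0.10, adjusted p = 0.00594), the transcription factor gene Creb3l1 (0.99, SE 0.18), which drives collagen secretion in bone, the chaperone genes Fkbp10 (0.82, SE 0.16) and Serpinh1 (0.51, SE 0.12), and the lysyl hydroxylase gene Plod3 (0.62, SE 0.16). P3h1 stood at 396, 366 and 392 CPM with the control siRNA and 265, 260.0 and 242 CPM in control. General chaperones of the endoplasmic reticulum did not follow: of 25 tested genes 2 were called, both lower, Dnajb9 (−0.76, SE 0.18) and Creld2 (−0.61, SE 0.15), and the median was −0.15, with both calls lost in at least 5 of the 6 fits that left out a library. Of the matrix and collagen processing genes, Fbln2 and P3h1 kept their calls when any single library was left out. The count was 1 in the matrix list without control siRNA library 2 and 2 in the collagen processing list without control siRNA library 3, and Col1a1 lost its call without control siRNA library 2 or 3 or control library 1 or 3 (adjusted p up to 0.0993).

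Cartilage genes themselves gave 3 calls among 18 tested, 1 higher (5.56%) and 2 lower (11.1%), with a median log2 fold change of −0.30. Cilp, which encodes an intermediate-layer protein of cartilage, stood at 40, 49.8 and 55.5 CPM with the control siRNA and 259.5, 151 and 161 CPM in control (log2 fold change −1.97, SE 0.42, adjusted p = 0.028). The lubricin gene Prg4 was lower (−1.91, SE 0.49) and the matrilin gene Matn2 higher (1.88, SE 0.45), and both stood under 7 CPM in each of the 6 libraries. Of 12 genes of hypertrophy and mineralization 2 were called higher and 2 lower (16.7% each way, median −0.48). Over all tested genes 2.1% were called higher and 1.77% lower, and 1 or 2 calls each way are not read as a result about either list. Spp1, the osteopontin gene, stood at 2063, 1945 and 1594 CPM against 810.2, 929.9 and 640.0 CPM (log2 fold change 1.23, SE 0.18, adjusted p = 0.0019), and Enpp1, which makes the mineralization inhibitor pyrophosphate, was higher by 0.63 (SE 0.14). Sp7, the osteoblast factor osterix, and Pth1r, the receptor of parathyroid hormone and its related protein, were lower, with fitted log2 fold changes of −2.11 and −2.09 at levels under 3 CPM. Spp1 kept its call when any single library was left out, and the other 6 lost theirs in at least 5 of these 6 fits.

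Of 33 tested immediate early genes, 8 were called lower in the control siRNA libraries and 2 higher, 27 had a negative log2 fold change and the median was −0.54. Fos, the founding AP-1 factor gene (ENSRNOG00000008015, chromosome 6, 109300433 to 109303299), stood at 2.81, 2.32 and 3.84 CPM with the control siRNA and 25.4, 23.4 and 21.5 CPM in control (log2 fold change −2.96, SE 0.52, adjusted p = 0.0111). The groups lay far apart, with no overlap. Dusp1, a phosphatase that switches off MAP kinases, stood at 165, 151 and 157 CPM against 322, 339 and 401 CPM (log2 fold change −1.17, SE 0.16, adjusted p = 0.00102). Junb, another AP-1 factor, stood at 139.6, 136 and 149 CPM against 357, 326 and 422 CPM (log2 fold change −1.38, SE 0.24, adjusted p = 0.00737). Btg2, an antiproliferative gene, stood at 32.9, 40 and 35 CPM with the control siRNA and 86.3, 86.8 and 100.3 CPM in control (log2 fold change −1.34, SE 0.24, adjusted p = 0.00828). The mRNA decay factor gene Zfp36, the orphan receptor gene Nr4a1, Egr3 and Csrnp1 were lower, with log2 fold changes of −1.47, −1.29, −2.95 and −0.73. The exceptions were Rhob, a small GTPase gene, at 301, 285 and 277 CPM against 202, 191 and 199 CPM (log2 fold change 0.54, SE 0.085, adjusted p = 0.00304), and Jund, the AP-1 member that is expressed in resting cells (0.43, SE 0.11). Dusp1, Junb, Btg2 and Rhob kept their calls when any single library was left out. Fos lost its call without control siRNA library 1 or 2 (adjusted p up to 0.0609), the other 5 lost theirs in at least 1 such fit, and the count of lower members was 4 without control siRNA library 1.

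The cyclic AMP response element, written TGACGTCA and its own reverse complement, was present in 1.91% of promoter windows and in 4 of 21 matched immediate early genes, Dusp1, Btg2, Jund and Maff. Maff was not called, though it passed in 4 of the 14 alternative settings. No window was given for Fos. The AP-1 site TGANTCA, in 7.33% of all windows, was found in none of these 21. The stretches that hold the response element in the 3 called genes, which moved in both directions, are shown in the same way, with it in capitals, since they carry the same letters.
Jund (chr16:18769959-18770018, minus strand): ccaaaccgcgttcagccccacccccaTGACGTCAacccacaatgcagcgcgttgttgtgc
Dusp1 (chr10:17184703-17184762, plus strand): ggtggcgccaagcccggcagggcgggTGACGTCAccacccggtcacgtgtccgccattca
Btg2 (chr13:48087858-48087917, minus strand): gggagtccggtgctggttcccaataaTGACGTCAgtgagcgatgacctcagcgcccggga

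Growth factor and morphogen signalling held the largest share of called lower members among the lists examined here with at least 5 tested members, with 13 of 40 lower, none higher and a median of −0.69. Sfrp2, a secreted modulator of Wnt signalling (ENSRNOG00000009465, chromosome 2, 182723854 to 182731764), stood at 179, 205 and 226 CPM with the control siRNA, against 813, 503 and 499 CPM in control (log2 fold change −1.57, SE 0.20, adjusted p = 0.000904). The CCN family genes Nov, Wisp1 and Wisp2, which encode matricellular proteins, were lower, with log2 fold changes of −1.65, −0.56 and −1.39. All 4 Id genes, targets of BMP signalling that block helix-loop-helix factors, were called lower. Id3 stood at 121, 110.2 and 106 CPM against 211, 208 and 268 CPM (log2 fold change −1.03, SE 0.14, adjusted p = 0.00142), and Id1, Id2 and Id4 had log2 fold changes of −1.55, −1.11 and −1.14. So were other members of the BMP pathway of either sign: the ligand gene Bmp2 (−0.81, SE 0.22), the inhibitory Smad gene Smad6 (−0.90, SE 0.23), and the secreted antagonist genes Fst (−0.97, SE 0.21) and Nog. Nog stood at 6.14, 6.03 and 8.48 CPM with the control siRNA and 40.3, 35.5 and 55.5 CPM in control (log2 fold change −2.67, SE 0.61, adjusted p = 0.0368). Igf2, the growth factor gene, was at 0.784, 0.726 and 1.59 CPM with the control siRNA, against 17.8, 18.5 and 38.3 CPM in control (log2 fold change −4.57, SE 1.01, adjusted p = 0.0339). Sfrp2, Nov, Id3 and Id4 kept their calls when any single library was left out, the other 9 did not, and the count of lower members was 4 without control siRNA library 1.

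Of 33 tested inflammatory mediators, 7 were called lower with the control siRNA and none higher (median log2 fold change −0.60). Nfkbia, an inhibitor of NF-kB and one of its targets, stood at 44.9, 48.4 and 44.2 CPM with the control siRNA and 81.9, 75.1 and 91.4 CPM in control (log2 fold change −0.85, SE 0.12, adjusted p = 0.00142). The monocyte chemokine gene Ccl2 stood at 409, 367 and 280.1 CPM against 662, 674 and 700.1 CPM (log2 fold change −0.95, SE 0.17, adjusted p = 0.00737). Its relative Ccl7 stood at 242, 226 and 178 CPM against 463, 395 and 375 CPM (log2 fold change −0.93, SE 0.16, adjusted p = 0.00594). The adhesion receptor genes Icam1 and Vcam1 and the chemokine genes Cxcl1 and Cxcl16 were lower, with log2 fold changes of −0.66, −1.53, −0.79 and −0.72. Il1r1, the signalling receptor of interleukin-1, was lower as well (log2 fold change −0.95, SE 0.15, adjusted p = 0.00287). The macrophage and leukocyte markers summed to less in the control siRNA libraries, as given above, with the lipopolysaccharide co-receptor gene Cd14 the most of that sum. Only 4 of these 16 markers could be tested and none was called, though Cd14 passed in 3 of the 14 alternative settings. Nfkbia, Ccl2, Ccl7, Icam1 and Il1r1 kept their calls when any single library was left out. Vcam1, Cxcl1 and Cxcl16 lost theirs in 3 to 5 of these fits, with adjusted p up to 0.134, 0.0804 and 0.126, and the list's count was 4 without control siRNA library 2.

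Among 31 proteases and inhibitors, 4 were called lower (12.9%) and 1 higher (3.23%), with a median of 0.07. Over all tested genes 1.77% were called lower and 2.1% higher, and the 1 higher call is not read as a result about the list. Mmp3, the stromelysin that cleaves proteoglycans, stood at 19.5, 17.5 and 19.7 CPM with the control siRNA and 56.2, 65.2 and 49.9 CPM in control (log2 fold change −1.59, SE 0.20, adjusted p = 0.000904), and its neighbour in the family Mmp10 was lower too (−1.94, SE 0.25). Timp1, an inhibitor of metalloproteinases, stood at 489, 493 and 520.0 CPM against 950.0, 855 and 853 CPM (log2 fold change −0.82, SE 0.19, adjusted p = 0.028). The aggrecanase-family gene Adamts9 stood at 5.29, 9.37 and 8.54 CPM against 41.3, 46.1 and 65 CPM (log2 fold change −2.72, SE 0.60, adjusted p = 0.0336). Mmp19 was the call in the other direction, at 199.6, 204 and 205 CPM against 111, 126 and 92.5 CPM (log2 fold change 0.88, SE 0.16, adjusted p = 0.00726). Mmp3, Mmp10 and Mmp19 kept their calls when any single library was left out, and Timp1 and Adamts9 lost theirs in each of these 6 fits (adjusted p up to 0.108 and 0.134).

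Double-stranded RNA is known to be sensed by the interferon system. Of 39 tested interferon and RNA sensing genes none was called higher and 2 lower, and the median was −0.23. They were the antigen presentation genes B2m, at 516, 551 and 543 CPM against 916, 691 and 794 CPM (log2 fold change −0.58, SE 0.12, adjusted p = 0.014), and Psmb9 (−0.67, SE 0.18). Of the 39, 25 had a negative log2 fold change, and at an unadjusted p under 0.05 in edgeR's test 13 were lower and 2 higher. Over all 14147 tested genes 2895 passed that limit in either direction. Without both Ddx5 siRNA libraries numbered 1, 10 genes of this list were called lower, among 871 lower over all genes. Outside this list, the interferon-inducible gene Ifi27l2b was called higher (log2 fold change 2.77, SE 0.58), as given further on. Of 19 genes of the RNA interference machinery 1 was called (5.26%), the exonuclease gene Eri1, which is known to degrade siRNA, and it was lower (−0.59, SE 0.14). Genes of lysosomes and autophagy, where delivered particles are broken down, gave 1 higher (3.03%) and 2 lower calls (6.06%) of 33, Ctsz (1.30), Gpnmb (−0.65) and Hexa (−0.40). Of these genes Gpnmb kept its call when any single library was left out, and Ifi27l2b, B2m, Psmb9, Eri1, Ctsz and Hexa did not (adjusted p up to 0.0973, 0.0712, 0.151, 0.127, 0.0678 and 0.17). Over all tested genes 2.1% were called higher and 1.77% lower, and 1 or 2 calls in such a list are not read as a result about the list.

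Apart from the macrophage, endothelial and adipocyte markers, of which 4, 3 and 2 genes were tested, 7 lists held no gene that passed in edgeR's test. These were 32 genes of cholesterol and fatty acid synthesis, 19 heat shock genes, 37 proliferation genes, 28 splicing factor genes, 32 ribosomal protein genes, and 29 nuclear and 11 mitochondrial genes of the respiratory chain. The ribosomal protein genes and the lipid synthesis genes had mostly positive values, 32 of 32 with a median log2 fold change of 0.35 and 30 of 32 with a median of 0.40. At an unadjusted p under 0.05, 19 of the ribosomal protein genes and 3 of the lipid synthesis genes were higher, and DESeq2 called 3 and 2. Without both Ddx5 siRNA libraries numbered 1, 18 ribosomal protein genes and 15 lipid synthesis genes were called higher. In the other 5 lists 0 to 2 genes per list were higher and 0 to 4 lower at that unadjusted p, and DESeq2 called 0 to 1 in each list and direction. Antioxidant genes gave 1 call each way of 23 (4.35%), Slc7a11 and the glutathione synthesis gene Gclc (−0.75, SE 0.19). Glycolysis and hypoxia genes gave 1 of 32 (3.13%), the muscle enolase gene Eno3, at 113, 101 and 111 CPM with the control siRNA and 54.1, 45.8 and 30.1 CPM in control (log2 fold change 1.32, SE 0.23, adjusted p = 0.00748). Genes of p53 and apoptosis gave 1 of 23 (4.35%), Pmaip1 (0.76, SE 0.19). Contractile genes gave 2 of 25 (4% each way), Flna higher (0.57, SE 0.11) and Cyr61 lower (729, 800.2 and 763 CPM against 1484, 1399 and 1707 CPM). Marker genes of muscle and nerve gave 1 call each, of 6 and 7 tested, Myh1 lower (−0.86, SE 0.16) and Tubb3 higher (0.84, SE 0.17). With 2.1% of all tested genes called higher and 1.77% lower, 1 or 2 calls in these lists are not read as a result about a list. Eno3 and Myh1 kept their calls when any single library was left out, and Gclc, Pmaip1, Flna, Cyr61 and Tubb3 did not (adjusted p up to 0.16, 0.171, 0.069, 0.148 and 0.0761).

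Ddx5, the RNA helicase gene that the study's other siRNA targets, had levels of 397, 398 and 360.0 CPM with the control siRNA and 545, 511 and 485 CPM in control. The groups did not overlap, but the difference did not pass (log2 fold change −0.42, SE 0.13, adjusted p = 0.079). In 5 of the 14 alternative settings it did pass. Ddx5 lay at 221, 252 and 207 CPM in the Ddx5 siRNA libraries, at 164, 241 and 194 CPM in those with the Ddx5 siRNA and stress, and at 360.3, 416 and 418 CPM under stress alone.

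The genes that changed most were partly outside the lists. The 15 largest increases among called genes, by the rule given under the processing, included Cyp4b1, a cytochrome P450 gene (3.46, 4.07 and 7.02 CPM against 0.297, 0.325 and 0.18 CPM) and Rgs9, a regulator of G protein signalling (3.56 on the log2 scale). Adm2, a peptide hormone gene of the adrenomedullin family, stood at 13.3, 10.2 and 11.3 CPM with the control siRNA and 2.14, 0.975 and 0.479 CPM in control (log2 fold change 3.27, SE 0.50, adjusted p = 0.00313). The interferon-inducible gene Ifi27l2b, one of a family of close copies between which counting can split reads, stood at 91.8, 106 and 124 CPM against 16.3, 12.9 and 17.9 CPM. The set also held the calcium pump gene Atp2a3 (3.02), Gramd1b (2.46), a sterol transfer protein gene, the laminin chain gene Lamb3 (2.13), the adaptor gene Card9 (1.99) and the neurotrophic factor gene Artn (1.88). The remaining ones were Gng3, Plekha7, Slc7a3, Slc6a9, Trib3 and Cth. The 15 largest decreases held Grin3a, a glutamate receptor subunit gene, which was all but undetected with the control siRNA at 0.0653, 0 and 0.0662 CPM and stood at 2.02, 3.38 and 3.29 CPM in control. Itm2a, a membrane protein gene of early cartilage and muscle, stood at 15.5, 17.1 and 20.4 CPM with the control siRNA and 129, 103 and 164 CPM in control (log2 fold change −2.90, SE 0.60, adjusted p = 0.0278). Chi3l1, the cartilage glycoprotein gene, stood at 1.04, 0.726 and 3.25 CPM against 19.1, 3.96 and 10.1 CPM (log2 fold change −2.71, SE 0.65, adjusted p = 0.0421). The retinol carrier gene Rbp4, the histidine decarboxylase gene Hdc, the chemokine gene Cx3cl1, the carboxypeptidase gene Cpz, Kank4 and Mfrp were lower, with fitted log2 fold changes of −3.67, −3.11, −2.31, −2.25, −2.29 and −3.02, and the others were Igf2, Fos, Egr3, Adamts9, Nog and Cilp. Slc7a3, Adm2, Card9 and Grin3a kept their calls when any single library was left out, and the others lost theirs in at least 1 such fit. Cyp4b1, Rgs9, Ifi27l2b, Gramd1b, Lamb3, Igf2, Adamts9, Nog and Kank4 did so in each of these 6 fits, with adjusted p up to 0.111, 0.131, 0.0973, 0.155, 0.159, 0.136, 0.134, 0.142 and 0.103.

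The study holds a second contrast of cells with an siRNA against cells without one, Ddx5 siRNA with stress against stress alone, which shares no library with the first. It called 4 genes (0.0283% of those tested), 1 higher (0.00707%) and 3 lower (0.0212%). The genes called higher with the control siRNA were positive there in 240 of 297 cases (80.8%), against 53.9% of all tested genes, with a median log2 fold change of 0.18 against 0.03 over all genes. Those called lower were negative there in 166 of 250 cases (66.4%), against 46.1% of all tested genes, with a median of −0.10. None of the 297 and 1 of the 250 passed there. These shares rested in part on Ddx5 siRNA and stress library 1. Without both Ddx5 siRNA libraries numbered 1, the higher genes were positive in 200 cases (67.3%, against 50.7% of all genes) and the lower genes negative in 132 cases (52.8%, against 49.2%), with medians of 0.09 and −0.02, and the contrast called 160 genes. The ATF4 list had a median of 0.61 there, with Asns at 115, 119 and 102 CPM in the Ddx5 siRNA and stress libraries and 88.4, 77.3 and 54.9 CPM in the stress libraries (log2 fold change 0.61, SE 0.18, adjusted p = 0.247). The median was 0.18 for the synthetases, 0.28 for the matrix genes and 0.44 for the lipid synthesis genes. It was 0.19 for the immediate early genes, 0.11 for the inflammatory mediators, −0.03 for the growth factor genes and −0.14 for the ribosomal protein genes. Without both libraries numbered 1 the median was 0.29 for the ATF4 list, with 31 of 37 genes positive, 0.19 for the synthetases, with 16 of 20 positive, and 0.16 for the matrix genes. It was 0.02 for the lipid synthesis genes and −0.32 for the ribosomal protein genes. There it was 0.21 for the immediate early genes, and it changed sign to −0.06 for the inflammatory mediators and to 0.05 for the growth factor genes. That contrast also carries the Ddx5 siRNA and stress, so its siRNA cannot be told apart from the loss of Ddx5.

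**Figure D4:**
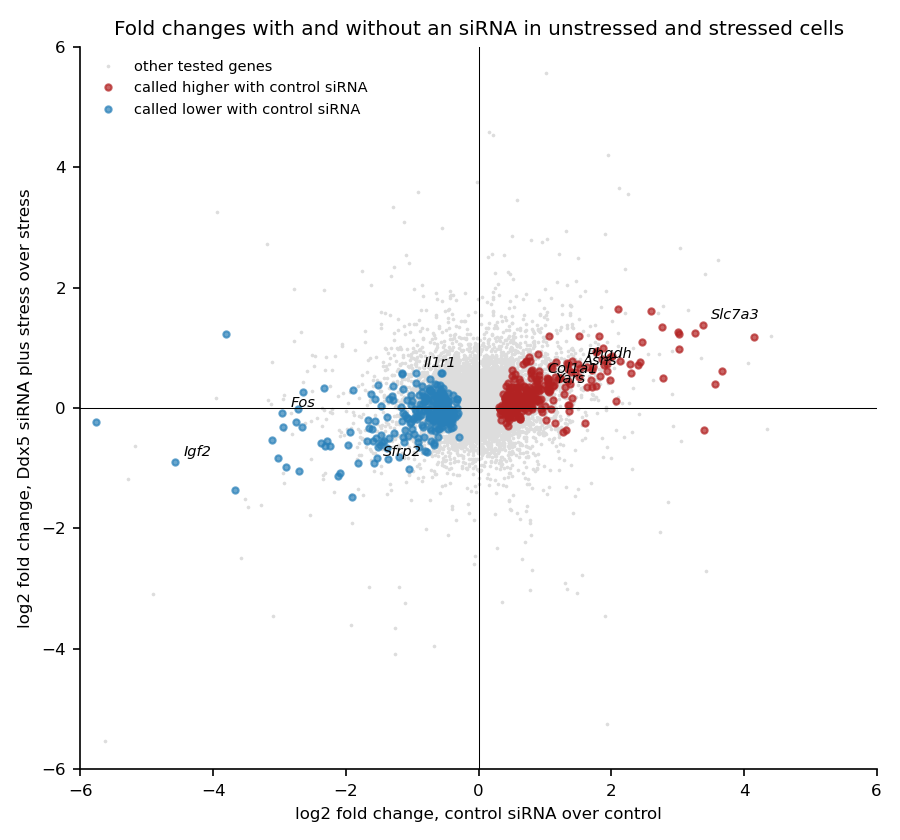
Log2 fold change of Ddx5 siRNA with stress over stress (y axis) against that of control siRNA over control (x axis) for each tested gene, with genes called higher or lower with the control siRNA in colour. Of the coloured genes 240 of 297 on the right lie above 0 and 166 of 250 on the left lie below it, counts that are 200 and 132 without both Ddx5 siRNA libraries numbered 1; 3 uncalled genes lie outside the axes.

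The level of each called gene in the remaining libraries was placed on a scale on which the mean of control siRNA is 1 and the mean of control is 0, in log2 of CPM plus 0.5. The genes were called because control siRNA and control lay apart, and the same libraries set both ends. Libraries of other groups can fall between the ends for that reason alone, and positions over all tested genes were not computed. For the genes called higher, the median position of the Ddx5 siRNA libraries was 0.704, 0.387 and 0.359, that of the libraries with the Ddx5 siRNA and stress 0.703, 0.347 and 0.341, and that of the stress libraries 0.295, 0.253 and 0.0645. For the genes called lower it was 0.655, 0.19 and 0.232, then 0.565, 0.21 and 0.263, then 0.265, 0.255 and 0.106. Libraries numbered 1 of both Ddx5 siRNA groups thus stood nearer to control siRNA than to control for most called genes, at 72.4% and 70.7% of those higher and 70% and 54.4% of those lower, and the libraries numbered 2 and 3 for 20% to 34.7%. The stress libraries did so for 12.8% to 29.2%. Col1a1 took 6.57% of the counts in both libraries numbered 1 and 4.37% to 4.65% in the other 4. The synovial and tendon markers, a sum that is mostly Thy1, reached 2363 and 2299 CPM in these libraries numbered 1 and 1244 to 1442 CPM in the other 4, and in control siRNA over control 7 of the 11 members were negative, as given above. Over all genes the Ddx5 siRNA library 1 correlated best with control siRNA library 3, and the Ddx5 siRNA and stress library 1 with stress library 1. Other libraries also correlated best outside their group. Control library 2 did so with Ddx5 siRNA library 2, and control library 3 and stress library 3 with each other. Stress library 2 did so with Ddx5 siRNA and stress library 3.

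The called genes divided by how the 6 libraries with a Ddx5 siRNA stood on the same scale. The limit given for the scale holds here too, and no share over all tested genes was computed. In 120 of 547 genes (21.9%) both libraries numbered 1 were nearer to control siRNA and the other 4 nearer to control, in 52 all 6 were nearer to control siRNA and in 67 none was. Igf2 showed the first pattern, at 2.51, 20.5 and 21.7 CPM in the Ddx5 siRNA libraries and 2.87, 21.8 and 22.4 CPM with stress added. Itm2a did so too, at 23.5, 89.8 and 81.4 CPM and 17.3, 74.6 and 73.2 CPM, as did Nog, at 7.07, 31.5 and 35.1 CPM and 9.65, 33.5 and 33.4 CPM. Fbln1, at 65.5, 27.1 and 33.1 CPM and 66.7, 28.5 and 25.3 CPM, and Timp1, at 541, 894 and 807 CPM and 557, 920.0 and 941 CPM, showed it as well. This pattern held for 6 of the 9 called matrix genes and 4 of the 5 collagen processing genes, against 5 of 23 in the ATF4 list and 1 of 13 synthetases. Asns, Phgdh and Yars were instead nearly even over the Ddx5 siRNA libraries, Yars at 107, 114 and 107 CPM in unstressed and 97.5, 94.9 and 98.8 CPM in stressed cells, between 175, 153 and 139.6 CPM with the control siRNA and 78, 81.7 and 69.8 CPM in control. Fos stood at 6.15, 24.8 and 13.9 CPM and 11.2, 28 and 19 CPM in these libraries. The labels name nothing that sets both libraries numbered 1 apart, and what distinguishes them was not tested.

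**Figure D5:**
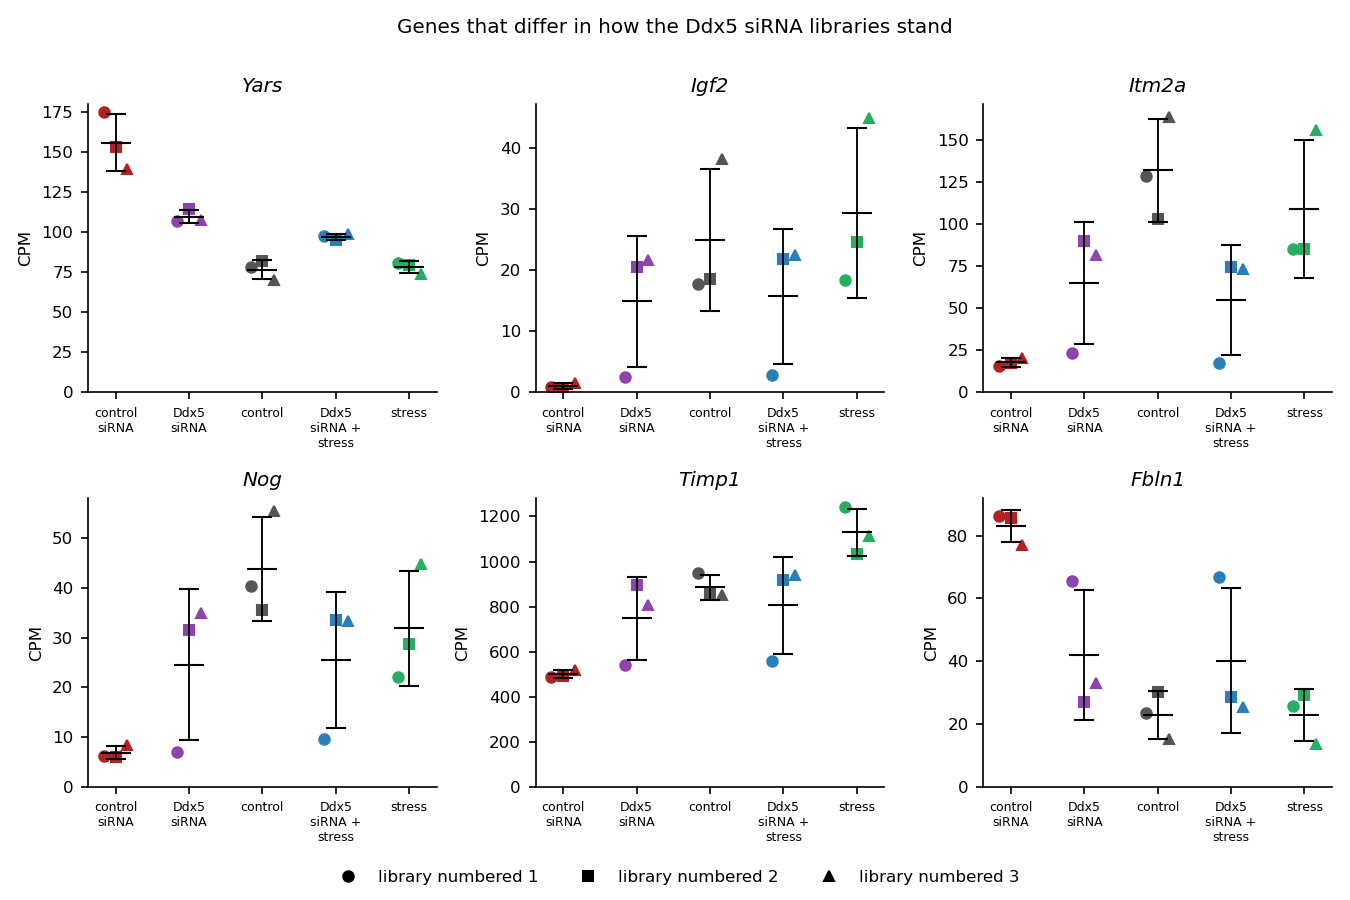
Level in CPM (y axes, from 0) of 6 called genes in each of the 15 libraries by group (x axes), with symbols for the library number, a short line at the mean and bars of 1 SD over 3 libraries. For Igf2, Itm2a, Nog, Timp1 and Fbln1 the circles, which mark library 1, of both Ddx5 siRNA groups lie near the control siRNA libraries and apart from libraries 2 and 3, and for Yars the 3 libraries of each Ddx5 siRNA group lie together.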

How the data were processed

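Bulk RNA-seq of primary rat temporomandibular joint chondrocytes was analysed from the table of raw read counts per gene that the authors deposited, with Trizol as the RNA reagent per the labels' protocols. The sources used here name no aligner, counter, strand setting, build or gene models, so reads of overlapping, antisense or nearly identical genes may be mixed. Library sizes were adjusted with TMM factors (trimmed mean of M values). Low genes were left out with filterByExpr by group, and 14147 of 33717 loci stayed. A quasi-likelihood F test was fitted over all 15 libraries with group as the term (edgeR 4.0.16 in R 4.3.3), so the 9 libraries outside the contrast also bear on the spread and the filter. P-values were adjusted by Benjamini-Hochberg over all tested genes, and calls were made at adjusted p below 0.05. Standard errors (SE) are of the log2 fold change. The common biological coefficient of variation was 0.217. Depth was 14309005 to 16219775 counts per library. Library pairs within a group differed by more than sampling noise, so each counted as 1 replicate. In simulated counts of the control siRNA contrast over 14147 genes, the same fit recovered 49% of 98 genes changed 2-fold and 97.1% of 102 changed 4-fold. It also called 7 unchanged genes. Each simulated gene had the same coefficient of variation, 0.217, and no simulated library stood apart, so these shares may not hold for the real counts.

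The 2 groups were compared as labelled, and Ddx5 siRNA with stress against stress in the same fit. The members and gene lists were chosen with earlier results of these data known. Of 884 list symbols 827 matched by symbol, 26 by an alternative symbol, 8 by a RefSeq synonym and 23 not at all. By rule the text names 7 preset genes (Asns, Phgdh, Atf5, Slc7a3, Fos, Col1a1 and Ddx5), the 15 largest called changes each way with no overlap between the groups and, in whichever group was higher, an average of 2 CPM or more, and from each list the 5 or fewer members of lowest adjusted p. Further list members and markers, among them Thy1, Ncam1, Cspg4, Cd14, Qars and Dars, were named after their values were seen. Library numbers are shared between groups, and deviations from the group means of same-numbered libraries correlated by 0.0671 to 0.0912 in the first contrast and by 0.306, 0.118 and 0.05 for libraries 1, 2 and 3 in the second. At least 1 pair in each was below 0.1, the limit for treating them as pairs. Alternatives were another scaling, other filters, DESeq2 1.42.0, a replicate block, the 6 libraries alone and leaving out each library, and, chosen after seeing the data, leaving out both Ddx5 siRNA libraries numbered 1. Promoter windows came from RefSeq on GRCr8, and the deposited gene coordinates name no build.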

Additional observations from a re-analysis of the deposited data

Results flagged for a closer look

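Il1r1, which encodes the signalling receptor of interleukin-1, was the 1 gene of 14147 tested for which the effect of control siRNA over control differed from that of Ddx5 siRNA with stress over stress at an adjusted p under 0.05 in edgeR's quasi-likelihood test. Its level was 24.8, 27.4 and 24.4 CPM with the control siRNA and 42.6, 49.5 and 55.3 CPM in control, and 62.3, 73.8 and 83.1 CPM in the Ddx5 siRNA and stress libraries and 49.2, 55.4 and 41.6 CPM under stress alone. The siRNA libraries lay below the libraries without siRNA in the first contrast and above them in the second, without overlap in either. The difference between the 2 log2 fold changes was −1.53 (SE 0.20, adjusted p = 0.0255). Within the second contrast alone the gene was not called (adjusted p = 0.166), and the Ddx5 siRNA libraries without stress stood at 45, 46.6 and 58.8 CPM. At an unadjusted p under 0.05, 2138 genes differed between the contrasts. The second contrast holds another siRNA and mechanical stress in both of its groups, and which of these bears on the difference cannot be told apart.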

How the results depend on the processing

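Of 144 called genes examined one by one none reversed direction under the alternatives run, 52 kept their call in each of 14 settings and 92 lost it in at least 1. Some uncalled genes passed in a part of these settings, among them Atf4 and Slc1a4 in 6, Ddx5 and Thy1 in 5 and Qars in 4. The main counts for control siRNA over control were 547 called, 297 higher and 250 lower. They stayed within 1.5 times with another scaling (540 called), with no filter on low counts (487) and with at least 1 CPM in 3 libraries (557). Leaving out 1 of the 6 libraries gave 166 to 392 called, 96 to 225 higher and 60 to 167 lower. DESeq2 called 1078 (593 higher, 485 lower) and the 6 libraries alone 1394 (709 and 685). Without both Ddx5 siRNA libraries numbered 1 the fit called 1804 (933 and 871), including each of the 547. With library number as a replicate block the fit called 1173 (664 and 509), and 1570 (808 and 762) in the 6 libraries alone. The numbers share nothing in the labels; in this contrast each library's deviations correlated best with the same number in the other group, a hint from the data and not from the design. For Ddx5 siRNA with stress over stress, 4 genes were called, 1 higher and 3 lower. The counts were 18 (8 and 10) with the other scaling, 16 (9 and 7) without a filter, 158 (83 and 75) with DESeq2 and 30 (20 and 10) with the replicate block. The 6 libraries of that contrast alone gave 0 in edgeR (0 higher, 0 lower, 1053 at an unadjusted p under 0.05), and 1 (1 and 0) with the block. Leaving out 1 library gave 0 to 7 called (0 to 5 higher, 0 to 3 lower), and leaving out both Ddx5 siRNA libraries numbered 1 gave 160 (94 and 66). The cause of these shifts was not tested. With 3 libraries a group and a common coefficient of variation of 0.217, changes near 2-fold were often missed in simulated counts, so an uncalled gene is not shown to be equal between the groups.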

Other observations

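Genes of the circadian clock, a list chosen after the values were seen, moved in both directions in the control siRNA libraries. Of 18 tested, 2 were called higher (11.1%) and 4 lower (22.2%) with the control siRNA, with a median log2 fold change of −0.27. Over all tested genes these shares were 2.1% and 1.77%. Since the values led to the choice of the list, its shares only describe it. The higher ones were Npas2, at 26.2, 28.3 and 23.7 CPM with the control siRNA and 10.5, 17.2 and 12 CPM in control (log2 fold change 0.98, SE 0.20, adjusted p = 0.0142), and Arntl, at 36.1, 36.4 and 31.5 CPM against 18.4, 22.4 and 18.7 CPM (log2 fold change 0.81, SE 0.21, adjusted p = 0.0493), which encode the activating partners of the clock. The lower ones were Dbp, at 52.7, 58.7 and 76.2 CPM against 151, 96 and 131 CPM (log2 fold change −1.01, SE 0.20, adjusted p = 0.0164), Tef, at 52.2, 56.4 and 63.2 CPM against 86.2, 71.9 and 93.2 CPM (log2 fold change −0.55, SE 0.11, adjusted p = 0.0145), Per2 (−0.74, SE 0.19) and Nr1d2 (−1.07, SE 0.20), which are known targets of those activators. Each of these calls was lost when at least 1 library was left out, with adjusted p up to 0.0705, 0.161, 0.0822, 0.0798, 0.16 and 0.0609. Without control siRNA library 1 the counts were 0 and 0.

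General translation factors were also chosen after the values were seen, so their share only describes the list. With the control siRNA 6 of 25 tested genes were called higher (24%, against 2.1% of all tested genes) and none lower (median 0.24). They were the elongation factor genes Eef2, at 4735, 4632 and 4908 CPM with the control siRNA and 2561, 3006 and 2835 CPM in control (log2 fold change 0.76, SE 0.16, adjusted p = 0.0179), and Eef1g (0.52, SE 0.13), the poly(A)-binding protein genes Pabpc1 (0.44, SE 0.098) and Pabpc4 (0.50, SE 0.11), the initiation factor gene Eif3c (0.42, SE 0.083) and the ribosome-bound scaffold gene Gnb2l1 (0.56, SE 0.15). The list's median was −0.04 for Ddx5 siRNA with stress over stress. Without control siRNA library 1 or 2 the count of higher members was 0.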
